A study of Homo sapiens with 12 samples.

Results

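A set of 10 genes for T cell adhesion and trafficking receptors was followed through 12 RNA sequencing libraries of Jurkat cells, a human leukaemic T cell line. They were CXCR4, ITGA4, ITGB1, ITGB7, ITGAL, ITGB2, SELPLG, GPR183, CCR9 and S1PR4, taken by symbol, and 10 of the 10 were listed both among the 55514 genes of the ZNF683 and Mock table and among the 44389 genes of the Dox+ and Dox- table. The 4 groups held 3 libraries each. ZNF683 libraries were labelled as Jurkat cells with doxycycline-induced ZNF683, the gene for the zinc finger transcription factor Hobit. Mock libraries, the set they were compared with, carry no stated agent, and their doxycycline status is not given. Dox+ libraries were titled with the factor's name and the drug, and Dox- libraries with the factor's name and no drug, so by their titles both sides of that comparison come from the line named for the factor. All cells were grown in medium with 10% fetal calf serum. The labelled doxycycline dose was 1 ug/uL for Dox+ libraries, and no dose was recorded for ZNF683 libraries. Whether replicates came from separate cultures or clones is not stated, so each p-value speaks only of library-to-library spread, which may be technical.

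A T cell leaves the blood in steps: selectins catch ligands such as PSGL-1 and let the cell roll, a chemokine receptor then signals inside the cell, and that signal switches integrins into a binding state that holds the cell on the vessel wall. Integrins work only as pairs of an alpha and a beta chain, so the supply of one chain bears on which pairs can form. The ITGA4 chain pairs with ITGB1 into VLA-4, which binds VCAM-1, or with ITGB7 into the gut homing integrin that binds MAdCAM-1, and ITGAL pairs with ITGB2 into LFA-1, which binds ICAM molecules. Hobit is known from tissue-resident and effector lymphocytes. In the tissue-resident ones, receptors for leaving a tissue, such as those for sphingosine 1-phosphate, are kept low.

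The promoter windows of ITGB1 and ITGB7 are shown because these genes encode the alternative partners of ITGA4 and stood far apart in level. Each line gives the 250 bases before a RefSeq start (GRCh38.p14; for ITGB1 the more upstream of 2), 5′ to 3′ on the minus strand, at chr10:32958231-32958480 for ITGB1 and chr12:53207252-53207501 for ITGB7. Capitals mark GAAAG, a core of the site bound by Blimp-1, a relative of Hobit, and GGAAG, a core of ETS factor sites, on either strand.
ITGB1: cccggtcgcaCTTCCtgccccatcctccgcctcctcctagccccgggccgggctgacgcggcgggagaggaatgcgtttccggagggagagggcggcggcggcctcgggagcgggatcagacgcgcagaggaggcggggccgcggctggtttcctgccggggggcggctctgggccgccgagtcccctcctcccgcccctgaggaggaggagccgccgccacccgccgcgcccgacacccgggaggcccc
ITGB7: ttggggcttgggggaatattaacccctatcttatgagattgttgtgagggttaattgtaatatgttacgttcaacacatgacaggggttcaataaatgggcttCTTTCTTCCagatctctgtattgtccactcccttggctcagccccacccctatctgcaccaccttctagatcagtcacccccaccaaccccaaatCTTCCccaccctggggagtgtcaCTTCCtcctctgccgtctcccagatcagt
The ITGB1 window held 78.4% G and C and 1 GGAAG, and the ITGB7 window held 49.6% G and C, 3 GGAAG and 1 GAAAG that shares a base with one of them. Of 35116 promoter windows of this length, 65.1% held GGAAG and 48.9% held GAAAG on either strand, so both are common. The window before the other ITGB1 start, chr10:32935559-32935808, held 41.6% G and C, 2 GAAAG and 1 GGAAG, so the contrast in composition depends on the start taken. TGTGGT, a RUNX site that 11% of those windows hold, was in none of these 3 windows. Such matches describe letters only. ITGAL, ITGB2 and SELPLG had no window in that table.

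Levels split the 10 genes into an abundant group and a scarce one. In TPM, a length-normalized abundance that can be compared between genes, ITGA4, CXCR4, SELPLG, ITGB2, ITGB1 and ITGAL averaged 178, 122, 97.4, 95.7, 85.2 and 37.3 over the 6 ZNF683 and Mock libraries, where ITGB7 averaged 3.50. ITGA4 was higher in level than 93.7% of the genes tested there, ITGAL than 72.9% and ITGB7 than 30.9%. ITGB1 was lower than SELPLG and ITGB2 in each of these 6 libraries, while SELPLG was above ITGB2 in all but ZNF683 library 1. Averages over the 6 Dox+ and Dox- libraries ran 189, 100.5, 79.9, 51.8, 47.1, 26.0 and 2.25 TPM for ITGA4, CXCR4, ITGB1, SELPLG, ITGB2, ITGAL and ITGB7. CCR9, GPR183 and S1PR4 averaged 0.455, 0.394 and 0.120 TPM in the ZNF683 and Mock libraries and 0.331, 0.334 and 0.042 TPM in the Dox+ and Dox- libraries. Only genes averaging 1 TPM or more within a table were tested, so 7 of the 10 were tested in both tables and these 3 in neither.

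**Figure D1:**
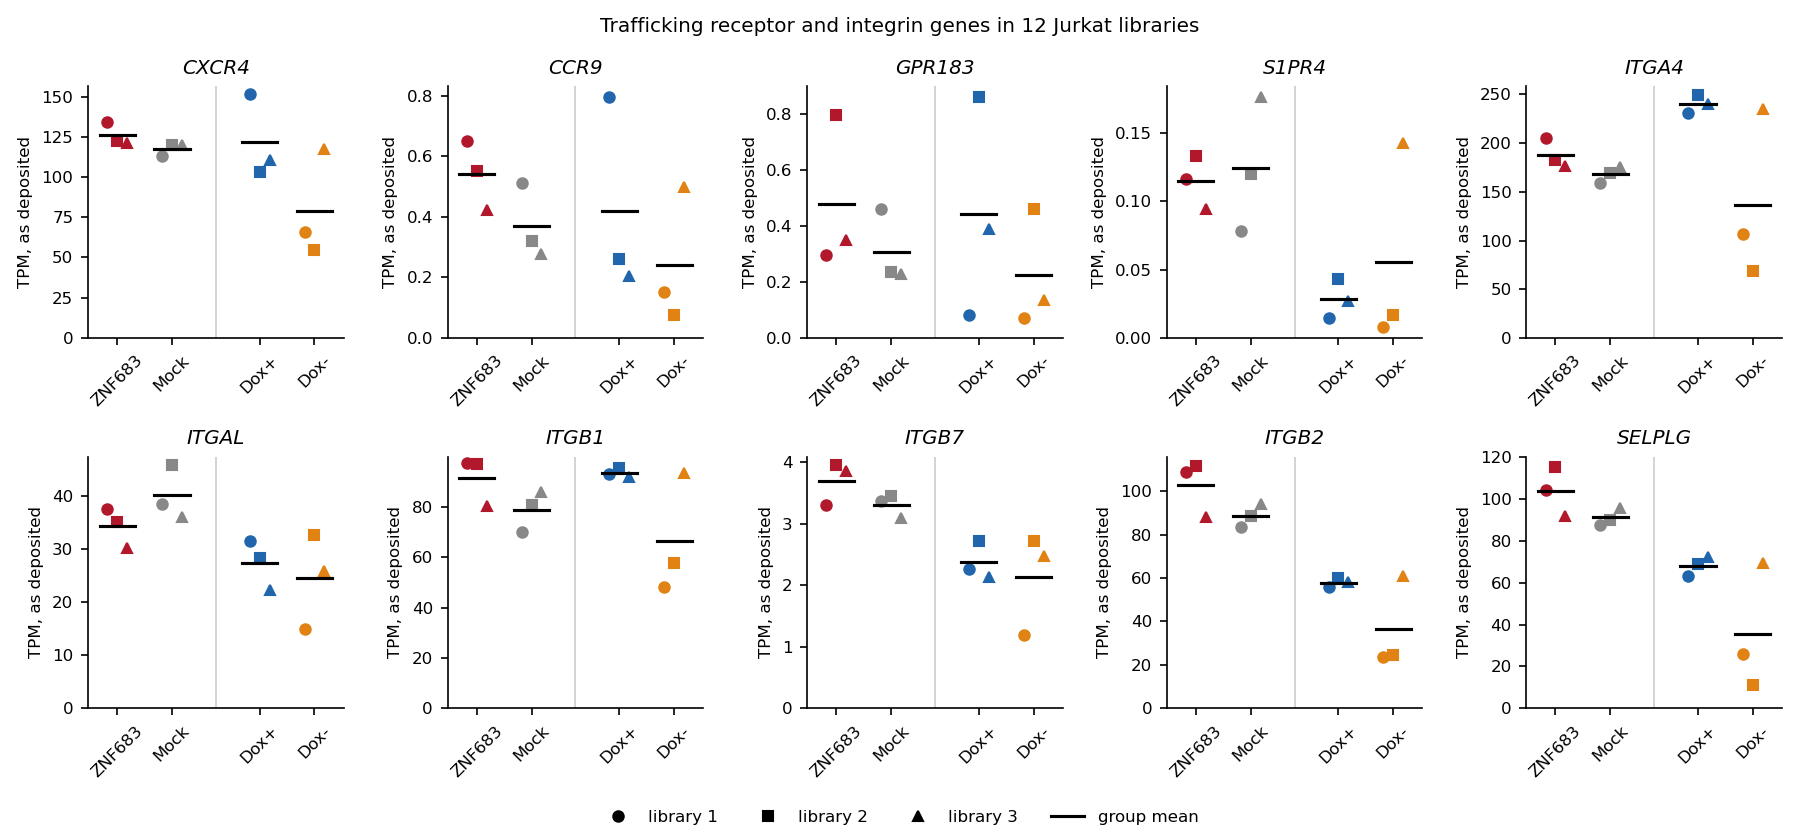
Each point is the TPM of 1 library for the named gene, on axes that start at 0, with libraries 1 to 3 as circle, square and triangle and the group mean as a black bar (ZNF683, Mock, Dox+ and Dox-, 3 libraries each). In the right part of the ITGA4 panel the Dox+ libraries lie between 231 and 249.6 TPM and the Dox- libraries at 107, 68.5 and 235 TPM, and the panels of CXCR4, ITGB1, ITGB2 and SELPLG show the same isolated triangle in the Dox- group.

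All 10 T lineage markers examined were above 1 TPM, as the labelled cell type would have them, and of 22 markers of other cell types 7 passed 1 TPM in the ZNF683 and Mock table, among them PECAM1 at 84.6 to 108 TPM, CD79A, a B cell receptor component, at 34.7 to 54.7 TPM, PAX5 at 2.55 to 4.14 TPM, and COL1A1, CDH1 and ITGAM at no more than 3.03 TPM. In the Dox+ and Dox- table CD79A ran 8.90 to 29.9 TPM, PECAM1 11.5 to 81.3 TPM and COL1A1 0.312 to 17.0 TPM. The summed other-type markers ran 145 to 159 TPM in ZNF683 libraries and 150 to 153 TPM in Mock libraries, and 105 to 107 TPM in Dox+ libraries and 41.6 to 109 TPM in Dox- libraries. ZNF683 itself was low: 1.17, 1.76 and 1.04 TPM in the libraries labelled ZNF683, against 0.715, 1.59 and 0.681 TPM in Mock libraries, and 0.453, 0.774 and 0.571 TPM in Dox+ libraries, against 0.115, 0.239 and 0.451 TPM in Dox- libraries. It does not clearly check the labels, so each direction below is between libraries as labelled. Among the Dox- libraries, library 1 had 50.7% of its TPM in 1 RNA, AL135790.1, against 6.65% to 12.8% in the other 5 libraries of that table, and library 2 had 637 TPM of HSPA6, a stress-inducible chaperone, against at most 0.351 TPM in those others. Both libraries are kept in the values below, and the members' changes are also given without library 2 and without both. HSPA6 differed between ZNF683 and Mock libraries too, at a lower level. It had 0.515, 0.399 and 0.618 TPM in ZNF683 libraries, against 6.85, 5.88 and 4.06 TPM in Mock libraries, and the cause was not tested.

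Between ZNF683 and Mock libraries no member passed the test. The 7 tested members had log2 changes of (TPM + 1) between -0.22 and 0.21, and 6 of the 7 were positive, with a median of 0.16 against 0.03 over all genes tested. By limma with Benjamini-Hochberg adjustment over all genes, 0 of 7 were called, the lowest adjusted p being 0.459, and 0 had an unadjusted p under 0.05, against 13.0% of all genes. Of all genes, 5 of 16588, or 0.0301%, were called. In bulk RNA, fewer cells that express a gene and less RNA per cell cannot be told apart.

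CXCR4 (chromosome 2, 136114349 to 136118165), the receptor for the chemokine CXCL12 and the means by which T cells are kept in bone marrow and lymphoid tissue, had 134, 123 and 121 TPM in ZNF683 libraries, against 113, 119.8 and 120.0 TPM in Mock libraries. Every ZNF683 library lay above every Mock library, with ZNF683 library 3 close to Mock libraries 2 and 3. The log2 change was 0.10 ± 0.10 (SE; limma adjusted p = 0.636), with a 95% interval of -0.12 to 0.32.

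ITGA4 (chromosome 2, 181457202 to 181536187), the alpha 4 chain, had 205, 182 and 176.4 TPM in ZNF683 libraries, against 159, 169.7 and 175.6 TPM in Mock libraries. The groups did not overlap, with the lowest ZNF683 library next to the highest Mock library. The log2 change was 0.16 ± 0.10 (limma adjusted p = 0.498). Groups that do not overlap, with ZNF683 higher, were seen for 2 of the 7 members and for 8.71% of all genes tested.

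Of the beta chains, ITGB1 (chromosome 10, 32900319 to 33005792) had 97.5, 97.0 and 80.2 TPM in ZNF683 libraries, against 70.1, 80.8 and 85.7 TPM in Mock libraries. ITGB2 (chromosome 21, 44885953 to 44931989), the leukocyte beta 2 chain, had 109, 112 and 88.0 TPM in ZNF683 libraries, against 83.7, 88.5 and 93.9 TPM in Mock libraries. For both genes libraries 1 and 2 of the ZNF683 group were above every Mock library and library 3 lay among them. The log2 changes were 0.21 ± 0.12 and 0.20 ± 0.12 (limma adjusted p = 0.459 and 0.465).

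SELPLG (chromosome 12, 108622277 to 108633959), which encodes the selectin ligand PSGL-1, had 104, 115 and 91.8 TPM in ZNF683 libraries, against 87.5, 90.0 and 95.7 TPM in Mock libraries, again with ZNF683 library 3 inside the Mock range. ITGB7 (chromosome 12, 53191318 to 53207307), the gut homing beta chain, had 3.29, 3.95 and 3.85 TPM in ZNF683 libraries, against 3.36, 3.45 and 3.09 TPM in Mock libraries. The groups overlapped for both. ITGAL (chromosome 16, 30472658 to 30523185), the alpha chain of LFA-1, was the 1 tested member with a negative change: 37.5, 35.2 and 30.3 TPM in ZNF683 libraries, against 38.6, 46.0 and 36.0 TPM in Mock libraries. Its groups overlapped through ZNF683 library 1, and the log2 change was -0.22 ± 0.13 (limma adjusted p = 0.466; 95% interval -0.52 to 0.08).

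The 3 scarce genes had values that overlapped between groups. CCR9 (chromosome 3, 45886504 to 45903177), the receptor for the small intestinal chemokine CCL25, had 0.650, 0.551 and 0.423 TPM in ZNF683 libraries, against 0.510, 0.319 and 0.276 TPM in Mock libraries. GPR183 (chromosome 13, 99294530 to 99307405), an oxysterol receptor that positions lymphocytes within lymphoid organs, had 0.295, 0.796 and 0.349 TPM in ZNF683 libraries, against 0.46, 0.234 and 0.229 TPM in Mock libraries. S1PR4 (chromosome 19, 3172346 to 3180332), a sphingosine 1-phosphate receptor of blood cells, had 0.116, 0.133 and 0.0945 TPM in ZNF683 libraries, against 0.0783, 0.120 and 0.176 TPM in Mock libraries. The annotated exons of CCR9 lie inside LZTFL1 and those of GPR183 inside UBAC2, on the opposite strand, and these hosts stood at 19.9 to 38.4 TPM and 61.4 to 76.5 TPM in this table. Whether the libraries kept strand is not stated, so reads of the hosts and of these receptors may not be told apart. Exons of ITGB7 and ITGB2 also lie partly within genes on the other strand, ZNF740 at 6.87 to 10.0 TPM and ITGB2-AS1 at 8.23 to 11.3 TPM. Those of ITGAL, ITGB1 and SELPLG lie partly within antisense or noncoding genes at no more than 3.07 TPM. Whether exons of the overlapping genes cover the same bases was not examined.

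With doxycycline no member passed the test either, and the 7 tested members had positive log2 changes, from 0.14 to 1.28, with a median of 0.67 against 0.32 over all genes tested. By limma 0 of 7 were called at an adjusted p under 0.05, the lowest being 0.315, and 2, ITGA4 and SELPLG, had an unadjusted p under 0.05, against 6.34% of all genes. Of all genes, 60 of 15148, or 0.396%, were called. The 79.1% of genes with a positive change show how widely the as-deposited values move in this table. For 5 members, CXCR4, ITGA4, ITGB1, ITGB2 and SELPLG, the difference lay in Dox- libraries 1 and 2, while Dox- library 3 stood at or near the Dox+ level.

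SELPLG had 63.3, 68.7 and 72.0 TPM in Dox+ libraries, against 26.0, 11.1 and 69.4 TPM in Dox- libraries. Dox- library 3 lay inside the Dox+ range, and the lowest value of the 6 was Dox- library 2. The log2 change was 1.28 ± 0.43 (limma adjusted p = 0.315), higher than that of 99.6% of the genes tested.

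ITGA4 had 231, 249.6 and 240.2 TPM in Dox+ libraries, against 107, 68.5 and 235 TPM in Dox- libraries. The Dox+ libraries lay close together, and Dox- library 3 lay among them. The log2 change was 0.99 ± 0.43 (limma adjusted p = 0.711), with a 95% interval of 0.15 to 1.84 before adjustment over genes.

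ITGB2 had 55.7, 59.9 and 58.1 TPM in Dox+ libraries, against 23.4, 24.5 and 61.1 TPM in Dox- libraries. ITGB1 had 93.0, 95.3 and 91.9 TPM in Dox+ libraries, against 48.3, 57.7 and 93.4 TPM in Dox- libraries. CXCR4 had 152, 103 and 111 TPM in Dox+ libraries, against 65.6, 54.6 and 117 TPM in Dox- libraries. In each of the 3 genes Dox- libraries 1 and 2 were the lowest of the 6. The log2 changes came to 0.80 ± 0.43, 0.54 ± 0.43 and 0.67 ± 0.43 (limma adjusted p from 0.737 to 0.738).

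ITGAL and ITGB7 departed from this pattern. ITGAL had 31.6, 28.4 and 22.3 TPM in Dox+ libraries, against 15.0, 32.7 and 25.9 TPM in Dox- libraries. ITGB7 had 2.25, 2.71 and 2.14 TPM in Dox+ libraries, against 1.20, 2.72 and 2.47 TPM in Dox- libraries. For both genes the low library was Dox- library 1 alone, and Dox- library 2, the lowest of the 6 for SELPLG, ITGA4 and CXCR4, was the highest, for ITGB7 level with Dox+ library 2. Their log2 changes, 0.21 ± 0.43 and 0.14 ± 0.40 (limma adjusted p = 0.853 and 0.899), were under the median of all genes.

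Among the scarce genes, CCR9 had 0.796, 0.262 and 0.204 TPM in Dox+ libraries, against 0.150, 0.0758 and 0.500 TPM in Dox- libraries. GPR183 had 0.0805, 0.861 and 0.391 TPM in Dox+ libraries, against 0.0717, 0.462 and 0.137 TPM in Dox- libraries. S1PR4 had 0.0146, 0.0428 and 0.0271 TPM in Dox+ libraries, against 0.00817, 0.0167 and 0.142 TPM in Dox- libraries. The groups overlapped for all 3.

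Because 1 RNA took 50.7% of Dox- library 1, the libraries were also put on a common scale by median-of-ratios scaling, which moved the median change of all genes to 0.13. After it, SELPLG had 55.3, 61.3 and 68.6 scaled TPM in Dox+ libraries, against 44.6, 9.06 and 58.8 in Dox- libraries. ITGA4 had 202, 223 and 229 scaled TPM in Dox+ libraries, against 183, 56.0 and 199 in Dox- libraries. Dox- library 1 thereby came close to the Dox+ libraries, and Dox- library 2 stayed low. The ITGA4 groups no longer overlapped, with Dox+ higher, which held for 1 of 7 members and 9.34% of genes tested on that scale; as deposited it held for 0 of 7 members and 7.91% of genes. Relative to the median of all genes, ITGA4 stood 0.68 above it as deposited and 0.64 above it after scaling, and SELPLG 0.96 and 0.93 above it. The ITGAL change turned to -0.01 after scaling, 0 of 7 members were called, and the lowest limma adjusted p was 0.688. In the ZNF683 and Mock table the same scaling left CXCR4 and ITGA4 as the members whose groups did not overlap, 2 of 7 against 11.8% of genes tested.

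**Figure D2:**
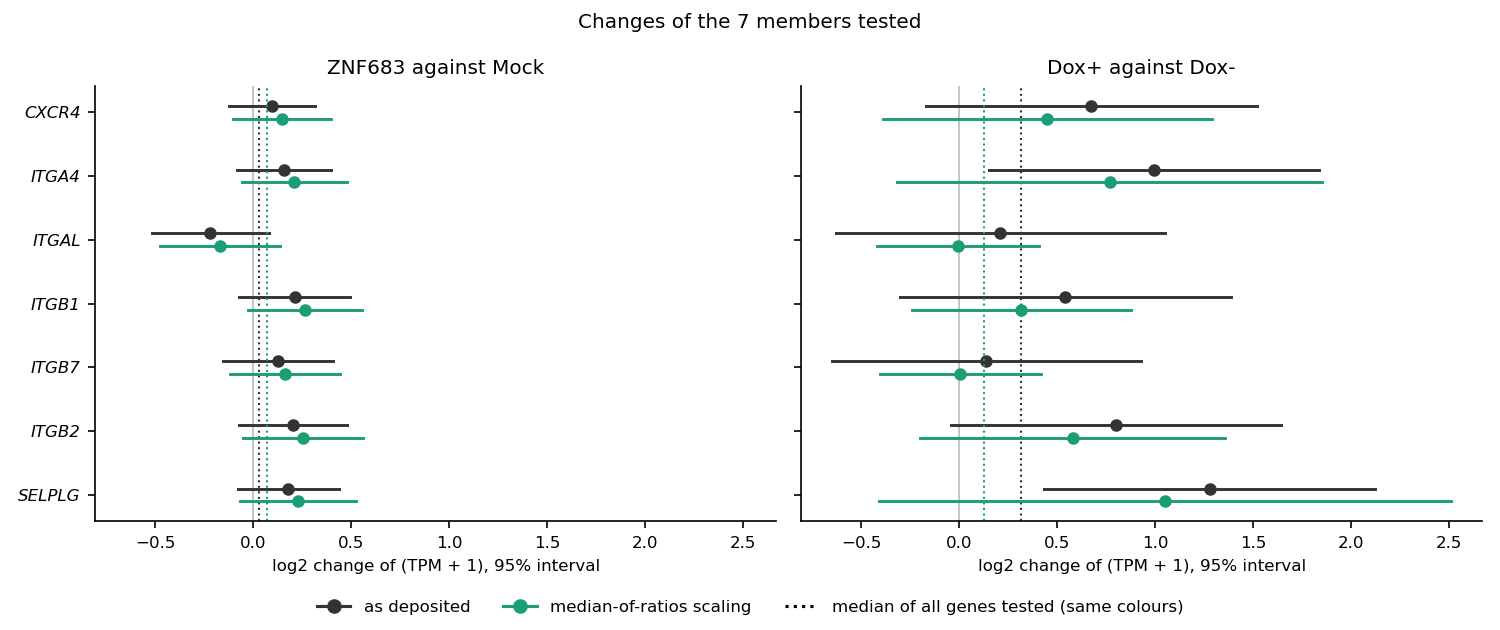
Points are limma log2 changes of (TPM + 1) with 95% intervals for the 7 members tested, for ZNF683 against Mock on the left and Dox+ against Dox- on the right, as deposited in black and after median-of-ratios scaling in green. Dotted lines mark the median of all genes tested, 0.03 and 0.07 on the left and 0.32 and 0.13 on the right, and the intervals of the doxycycline comparison are the wider ones.

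The calls in this comparison turned on single libraries. Without Dox- library 3, 5 of the 7 members were called higher in Dox+: SELPLG (log2 change 1.93, limma adjusted p = 0.0342), ITGA4 (1.48, 0.0342), ITGB2 (1.24, 0.0342), ITGB1 (0.81, 0.0403) and CXCR4 (0.99, 0.0447). In that same fit, whose Dox- group was libraries 1 and 2 alone, 2788 of 15127 genes, or 18.4%, were called. The median log2 change of all genes in it was 0.50, and it was run only on values as deposited. Without Dox- library 2, the one high in HSPA6, 0 of 7 members were called (lowest limma adjusted p = 0.682), and the log2 changes were 0.66 for SELPLG, 0.59 for ITGA4, 0.60 for ITGB2, 0.47 for ITGB1 and 0.45 for CXCR4, against a median of 0.39 over all genes. With median-of-ratios scaling as well, they were 0.26 for SELPLG, 0.18 for ITGA4, 0.19 for ITGB2, 0.06 for ITGB1 and 0.04 for CXCR4, against 0.04 over all genes, again with 0 of 7 called. With Dox- libraries 1 and 2 left out instead, an alternative in which the lone Dox- library is assumed to vary like the Dox+ ones, the 7 changes lay between -0.08 and 0.07. The summed 10 T lineage markers moved the same way, at 3406 to 3704 TPM in Dox+ libraries, against 1484, 1376 and 2984 TPM in Dox- libraries. The summed members came to 17.0%, 17.6% and 17.6% of that marker sum in Dox+ libraries, against 19.3%, 18.3% and 20.3% in Dox- libraries. Single members differed from that sum: SELPLG came to 1.71%, 1.99% and 2.12% of the marker sum in Dox+ libraries, against 1.75%, 0.806% and 2.33% in Dox- libraries, and ITGA4 to 6.24%, 7.23% and 7.05% in Dox+ libraries, against 7.21%, 4.98% and 7.89% in Dox- libraries. For both genes Dox- library 2 was the lowest of the 6 on this scale too.

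Whether a member's change differed between the comparisons was tested as a contrast over all 12 libraries. No member passed: 0 of 7 were called, with adjusted p from limma of at least 0.876 and 0 unadjusted p under 0.05 (3.75% of all genes), and 2 of 14468 genes, or 0.0138%, were called over both tables. The difference, doxycycline effect minus ZNF683 effect, was 1.10 ± 0.57 for SELPLG and 0.83 ± 0.46 for ITGA4 on the log2 scale. Without Dox- library 3, 4 of 7 members and 2550 of 14423 genes, or 17.7%, were called in this contrast.

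Ratios of partner chains within a library do not depend on how that library was scaled. ITGAL/ITGB2, the chains of LFA-1, stood at 0.346, 0.316 and 0.345 in ZNF683 libraries, against 0.461, 0.519 and 0.384 in Mock libraries. Every ZNF683 library was lower than every Mock library, with a difference of -0.43 on the log2 scale. The two-sided exact permutation p was 0.1, the smallest that 3 against 3 libraries can give. Adjusted over the 10 ratios compared, it was 0.5. That floor lies above the threshold of 0.05, so no ratio could pass this test, whatever its values. ITGA4/ITGAL stood at 5.46, 5.19 and 5.82 in ZNF683 libraries, against 4.11, 3.69 and 4.88 in Mock libraries, with the same exact p; it shares ITGAL with the first ratio and is no separate evidence. The ratios among ITGA4 and its partners overlapped between groups. ITGB1/ITGB7 averaged 25.0 ± 4.39 in ZNF683 libraries and 24.0 ± 3.49 in Mock libraries, and ITGA4/ITGB1 averaged 2.06 ± 0.16 in ZNF683 libraries and 2.14 ± 0.11 in Mock libraries (SD, n = 3 each; exact permutation p = 0.8 and 0.6).

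With doxycycline, 1 library stood apart in all 5 ratios. In Dox- library 2 ITGA4/ITGB1 was 1.19, where the rest of that table ran 2.22 to 2.62. ITGA4/ITGB7 was 25.2 in that library and 89.2 to 112 in the others, and ITGB1/ITGB7 was 21.2 against 35.1 to 43.0. ITGAL/ITGB2 was 1.34 in it and 0.383 to 0.640 in the others, and ITGA4/ITGAL was 2.09 against 7.14 to 10.8. Dox- library 1, in which AL135790.1 took 50.7% of TPM, had ratios close to those of the Dox+ libraries. The exact test gave adjusted p from 0.5 to 0.714 for the 5 ratios, and with 3 against 3 libraries none could pass it. Dox- library 2 is the one with the high HSPA6, and what part that has in its ratios was not tested.

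**Figure D3:**
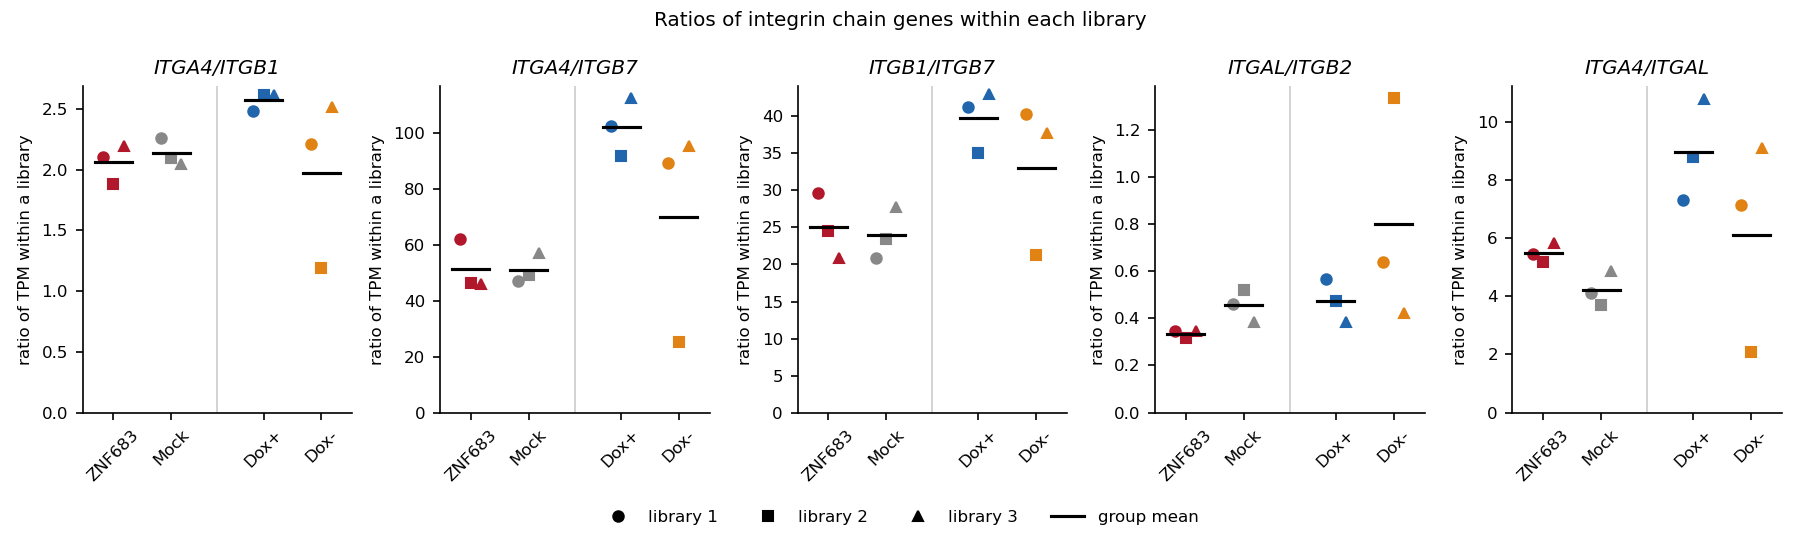
Points are the ratio of TPM of the 2 named integrin chain genes in 1 library, on axes that start at 0, with libraries 1 to 3 as circle, square and triangle and the group mean as a black bar. The ITGAL/ITGB2 panel shows the ZNF683 libraries between 0.316 and 0.346 under the Mock libraries at 0.384 to 0.519, and in every panel the Dox- square stands away from the other 5 libraries of its table.

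Shares of the 10 genes' summed TPM give the make-up apart from the overall level. ITGA4 made up 27.3% to 29.8% of the sum in ZNF683 libraries and 28.3% to 28.8% in Mock libraries, and 36.7% to 41.0% in Dox+ libraries and 37.3%, 27.2% and 38.9% in Dox- libraries. SELPLG made up 10.1% to 12.1% in Dox+ libraries, against 9.08%, 4.39% and 11.5% in Dox- libraries. Here too Dox- library 1 lay close to the Dox+ libraries and Dox- library 2 did not. The 2 tables were deposited apart, so a gap in level between them is not compared.

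**Figure D4:**
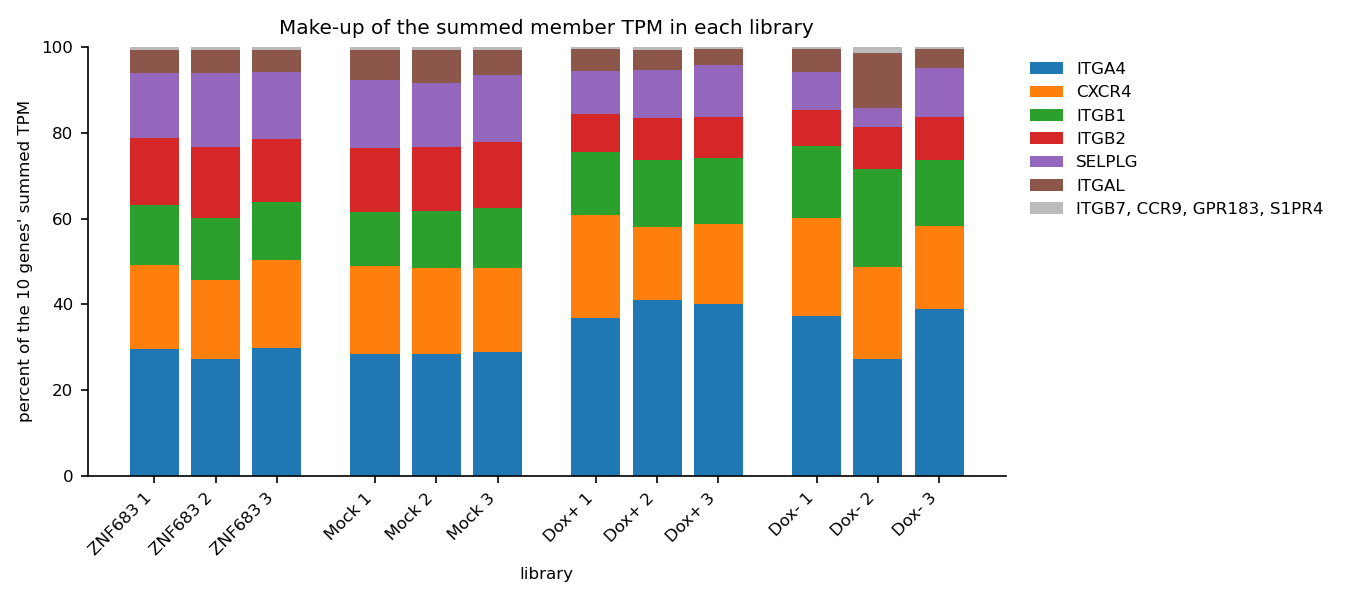
Each bar is 1 library and its segments are the percent of the 10 genes' summed TPM held by each gene, with ITGB7, CCR9, GPR183 and S1PR4 joined as the grey tip. ITGA4 is the largest segment in all 12 libraries, and Dox- library 2 differs from the other Dox+ and Dox- bars by its small SELPLG segment (4.39%) and large ITGAL segment.

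Other genes of the trafficking pathway were counted from 8 lists of 141 genes, and in both comparisons 0 genes of any list were called higher and 0 lower by limma, on both scales. As deposited, 0 to 3 genes of a list had an unadjusted p under 0.05 for ZNF683 against Mock and 0 to 4 for Dox+ against Dox-, beside the 13.0% and 6.34% of all genes. Among 11 other integrin chains tested for ZNF683 against Mock, 5 were positive (median -0.07 against 0.03 for all genes). ITGA1, the collagen-binding alpha 1 chain of resident T cells, had the lowest p of them, with 9.28, 6.06 and 10.4 TPM in ZNF683 libraries, against 5.22, 2.98 and 4.19 TPM in Mock libraries (log2 change 0.90 ± 0.22, limma adjusted p = 0.279). Its groups did not overlap with doxycycline either. It had 7.13, 6.85 and 6.29 TPM in Dox+ libraries, against 2.71, 2.99 and 4.95 TPM in Dox- libraries (0.80 ± 0.41, limma adjusted p = 0.737). ITGA1 had the lowest p of its list in both comparisons. Such gaps, with ZNF683 or Dox+ higher, were seen for 8.71% and 7.91% of all genes tested.

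Receptors that send T cells to lymph nodes or back to the circulation did not pass the test. Of the 6 other chemokine receptors tested, 5 were positive for ZNF683 against Mock, with CCR7, the lymph node homing receptor, at 5.22, 5.58 and 4.31 TPM in ZNF683 libraries, against 3.10, 3.64 and 3.74 TPM in Mock libraries (log2 change 0.42 ± 0.13, limma adjusted p = 0.317). S1PR1, the receptor for leaving tissue, had 32.7, 36.7 and 29.1 TPM in ZNF683 libraries, against 23.4, 27.0 and 27.8 TPM in Mock libraries (0.32 ± 0.12, limma adjusted p = 0.355). For both the groups did not overlap and the test was not passed. Both had the lowest p of their lists, and such a gap, with ZNF683 higher, was seen for 8.71% of all genes tested.

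Of 28 tested genes for integrin activation and linkage to actin, 21 were positive for ZNF683 against Mock and 24 for Dox+ against Dox-, with medians of 0.12 and 0.44 against 0.03 and 0.32 for all genes. RASSF5, which encodes the RAPL protein that carries Rap1 signals to LFA-1, had 91.9, 99.0 and 94.6 TPM in Dox+ libraries, against 40.3, 28.7 and 85.3 TPM in Dox- libraries (log2 change 1.02 ± 0.43, limma adjusted p = 0.662). RGS2, a brake on G protein signals, had 3.57, 3.65 and 3.07 TPM in Dox+ libraries, against 1.98, 91.1 and 3.64 TPM in Dox- libraries, so its difference was held by Dox- library 2 (limma adjusted p = 0.242). Among 7 tested transcription factors known to control trafficking genes, RUNX1 had 34.4, 37.3 and 37.5 TPM in ZNF683 libraries, against 48.3, 55.3 and 47.2 TPM in Mock libraries (-0.45 ± 0.10, limma adjusted p = 0.271). RUNX3 went the other way, at 6.72, 5.44 and 5.22 TPM in ZNF683 libraries and 4.89, 4.22 and 4.28 TPM in Mock libraries. Its log2 change was 0.31 ± 0.13 (limma adjusted p = 0.377). As deposited its groups did not overlap, with ZNF683 higher, as for 8.71% of all genes tested, and after median-of-ratios scaling they overlapped.

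In the remaining lists, 6 of 9 genes of the sphingosine 1-phosphate and oxysterol pathway were positive for ZNF683 against Mock (median 0.06) and 8 of 9 for Dox+ against Dox- (median 0.37). Selectins and the enzymes that build their ligands had 7 of 14 positive (median -0.04) and, with doxycycline, 13 of 13 (0.43). Genes that couple chemokine receptors to the cell or switch them off had 12 of 14 positive (0.14) and, with doxycycline, 12 of 15 (0.35). Adhesion and chemoattractant ligands had 1 of 7 positive (-0.07) and, with doxycycline, 4 of 4 (0.62), and the transcription factors 3 of 7 (-0.01) and 4 of 7 (0.07). These medians stand beside 0.03 and 0.32 for all genes. The doxycycline values shrank with median-of-ratios scaling, where the median of all genes was 0.13: selectins and their enzymes had 10 of 13 positive (0.25), integrin activation 20 of 28 (0.22), the sphingosine 1-phosphate and oxysterol pathway 8 of 9 (0.16), receptor coupling 12 of 15 (0.16) and ligands 4 of 4 (0.40). On that scale the other integrin chains had 3 of 10 positive (-0.02, against 8 of 10 and 0.09 as deposited), and the transcription factors turned to 3 of 7 (-0.09).

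The gene whose pattern lay closest to a member, over the 12 libraries with each table centred on its own mean, is given as a description only. ITGA4 lay closest to TRIM21 (Pearson r = 0.996, Spearman rho = 0.979), SELPLG to ELP6 (0.996, 0.965), ITGB2 to MCM5 (0.995, 0.944), ITGB1 to CMPK1 (0.993, 0.958) and CXCR4 to MID1IP1 (0.984, 0.839). The points share libraries and the low Dox- library 2, and between 508 and 2287 of the 9633 genes compared had an r over 0.9 with each of these 5 members. ITGAL and ITGB7 had no gene over 0.9, and the closest to ITGB7 was RHOBTB3 (0.857).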

How the data were processed

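RNA was sequenced from 12 Jurkat libraries after extraction with a Qiagen kit and low-input library preparation, per the labels' protocols. The authors deposited 2 tables of TPM per gene symbol. Among the tools in the submitters' processing notes are kallisto 0.46.0 and DESeq2 1.22.2, whose roles are not stated. Build, transcript set and strand are not given in the sources used here, and since TPM keeps no read number, depth is unknown and no counting intervals are given. The members and the lists of other genes were chosen with earlier results of these data known.

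Groups came from titles and genotype labels. Each table was fitted alone with limma 3.58.1 (R 4.3.3) on log2(TPM + 1) for genes averaging 1 TPM or more, with trended variance, two-sided moderated tests, Benjamini-Hochberg adjustment over all genes and a threshold of 0.05; the pseudocount of 1 understates changes of low genes. In the doxycycline table limma's prior degrees of freedom were unlimited, so the test leaned almost wholly on the spread typical of a gene's level. Ratios had exact permutation tests over 3 against 3 libraries, which cannot give a p under 0.1 and so cannot pass the threshold. The limma fit of each table was tested on simulated data in which genes varied independently. That test did not cover shifts of a whole library or the contrast over all 12 libraries. Named genes were the 10 members, ZNF683, up to 3 genes per list with the smallest unadjusted p (those printed are some of these) and the most alike gene of each member; the one most like ITGAL is not reported here. AL135790.1 and HSPA6 were named after their values were seen, as was the pair of promoter windows printed. Gene positions are from GENCODE on GRCh38, matched by symbol. Alternatives covered scaling, pseudocount, filter, robust moderation, replicate numbers and each library left out.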

Additional observations from a re-analysis of the deposited data

How the results depend on the processing

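No alternative called a member for ZNF683 against Mock, and its members kept their direction under each alternative that tested them (ITGB7 is not tested at a mean of at least 5 TPM). For Dox+ against Dox-, leaving out each library in turn called 0 to 5 members, the 5 without Dox- library 3, and 0 to 4 for the difference of the effects. No other alternative called a member. The changes that turned negative with doxycycline were those of ITGAL, at -0.0060 with median-of-ratios scaling (with or without the replicate block), -0.085 with AL135790.1 left out and -0.145 with scaling over genes of at least 1 TPM, and of ITGB7, at -0.053 and -0.095 in the last 2 of these. Each library left out in turn gave -0.095 to 0.44 for ITGAL and -0.096 to 0.28 for ITGB7. With Dox- libraries 1 and 2 left out, ITGB7 was at -0.047, ITGB2 at -0.076 and SELPLG at -0.030. The cause of these turns was not tested.

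Counts of genes called over the whole table were less stable. For ZNF683 against Mock the 5 genes became 3 with a pseudocount of 0.1, 0 with no filter or a mean of at least 5 TPM, 8 with robust moderation, and 0 to 49 without 1 library. For Dox+ against Dox- the 60 became 1 with median-of-ratios scaling (also without Dox- library 2), 0 with scaling over genes of at least 1 TPM, with AL135790.1 left out, with no filter or with Dox- libraries 1 and 2 left out, 15 with a mean of at least 5 TPM, 23 with robust moderation and 0 to 2788 without 1 library. Whether replicate numbers pair the libraries is not stated. Same-number correlations of deviations were -0.20, 0.05 and -0.25 for ZNF683 and Mock and 0.01, 0.07 and 0.38 for Dox+ and Dox-. Different-number correlations ran from -0.19 to 0.31 for ZNF683 and Mock and from -0.35 to 0.22 for Dox+ and Dox-. With 3 libraries per group, and Dox- libraries 1 and 2 unlike the others, these values cannot decide whether the numbers mark pairs. With the replicate block 0 and 34 genes were called, 12 and 0 with the block and scaling, and 0 members in each. Of the ratios for ZNF683 against Mock, ITGA4/ITGB7 was at 0.034 (log2) from TPM + 1; without 1 library it ran -0.145 to 0.080, ITGA4/ITGB1 -0.10 to 0.0099 and ITGB1/ITGB7 -0.075 to 0.18. Scaling over genes of at least 1 TPM, the whole-table counts, and the members' changes without Dox- library 2 or without Dox- libraries 1 and 2 were added after seeing the data.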
